A study of Mus musculus with 9 samples.

Results

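The data describe how 3T3-L1 cells in control medium changed from preadipocytes to adipocytes, on days 4, 6 and 8 after induction against day 0. 3T3-L1 is a clonal mouse fibroblast line that stores fat once it is induced. The comparison used 4 of the 9 arrays of the study, chosen by the medium and the day in the sample labels, with 1 array for each day. The arrays of days 4, 6 and 8 held RNA from cells that received 10% FBS, 0.5 mM methylisobutylxanthine (a phosphodiesterase inhibitor), 10 µM dexamethasone (a glucocorticoid) and 5 µg/ml insulin for 2 days, and FBS with insulin afterwards, with no further additive. The array of day 0 held RNA from confluent cells before induction, grown in calf serum. All media held gentamicin. A further control array, of day 2, was taken at the end of the inducer treatment and served as a second point of comparison. The remaining 4 arrays, of medium with chickpea, entered only the scaling and the filter on dim genes. No culture was repeated, so the spread between days 4, 6 and 8 stands in for the error and holds any change with time as well.

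The array carried 321 genes chosen by its makers as related to metabolic syndrome, 1 spot each. Spots brighter than 10 intensity units counted as above background, and 228, 231 and 235 of the 321 genes did so on days 4, 6 and 8, against 204 on day 0. Median brightness was 129, 129 and 168 units on days 4, 6 and 8 and 57 units on day 0, and its part in the results was not tested beyond the scalings given below. All levels are log2 intensities after quantile scaling, in which 1 unit is a doubling and 3.39 is the floor, the lowest level that could be measured on every array. A difference from a day at the floor is a bound and is written "at least" or "or lower". Brightness differs between probes, so levels of different genes cannot be set against each other. Fewer cells of a type and less RNA per cell cannot be told apart in such bulk samples.

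Adipogenesis in this line runs as a relay of transcription factors. Glucocorticoid and cyclic AMP signals switch on C/EBP beta and C/EBP delta, these switch on PPAR gamma and C/EBP alpha, and that pair turns on the genes of fat storage, lipolysis and adipokine secretion. Preadipocyte factors such as Dlk1, the GATA proteins and Wnt signalling hold the cells undifferentiated.

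Of the 321 genes, 83 were too dim for the filter, and 28 more were at the floor on days 4, 6 and 8 and could not be tested. Among the 210 tested genes, 26 rose (12.4%) and 19 fell (9.05%) on days 4 to 8 against day 0 (limma, adjusted p under 0.05), a share of 21.4% in all, and 91 had an unadjusted p under 0.05. On day 0, 9 of the 26 genes that rose were at the floor. The 28 untested genes included 9 above the floor on day 0, which could not be called lower. The test thus admitted genes at the floor on day 0 and left out those at the floor on all late days. With the filter on all 5 control arrays 16 rose and 33 fell, so both shares depend on which genes are admitted. The genes that rose were led by adipokines and fatty acid genes, and those that fell by Sfrp2, Apod, Thbs2 and Ccl2. The split depended on scaling: 27 rose and 11 fell with median scaling, 27 and 10 with control gene scaling, and 25 and 86 on the deposited values, which set Gapdh equal on all arrays. With 6 different scalings, 22 genes rose and 5 fell under every scaling, and the other genes called with quantile scaling kept their direction (26 of 26 higher, 19 of 19 lower). The 5 that fell under every scaling were Ccl2, Cpt1a, Rab3il1, Sfrp2 and Thbs2. Of the increases, Acads, Agt, Mdh1 and Pdhb missed the threshold under at least 1 scaling and the other 22 under none. Of the decreases, Adra1d, Apod, Cap1, Ccl5, Ccnd1, Ctnnb1, Dlk1, Dvl2, Dvl3, E2f5, Map2k6, Prkag2, Tcf7l2 and Tfap2a missed it under at least 1, so these 14 calls depend on the scaling. Quantile scaling put the median difference over all tested genes at -0.40, and the other scalings put it between -0.81 (deposited values) and -0.03 (control genes). The calls rest on having all 3 late days. Without day 4, 19 genes passed (18 higher, 1 lower). Without day 6 it was 0 (47 at an unadjusted p under 0.05, smallest adjusted p = 0.108), and without day 8 it was 0 (88 and 0.0534). Each of the 45 calls that could be refitted kept its sign, at 0.897 to 1.14 times its value. Larger shifts were unlikely by design, since the calls had been selected for a small spread between the late days. Each refit also shared late arrays with the call. The single day 0 array was in every refit, so its part was not tested.

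**Figure D1:**
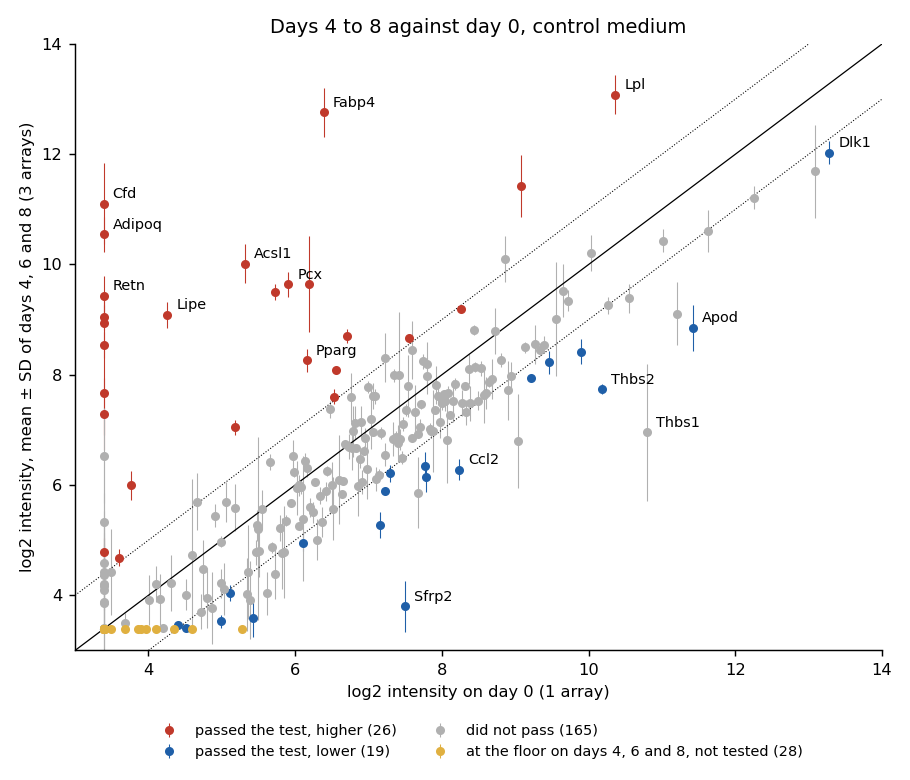
Level on day 0 (x axis, log2 intensity, 1 array) against the mean of days 4, 6 and 8 (y axis, bars are SD over the 3 days) for the 238 genes that passed the filter. The solid line marks no difference and the dotted lines a 2-fold difference. Cfd, Adipoq and Retn stand at the floor of 3.39 on day 0 and far above the line, while Sfrp2, Thbs2 and Apod lie below it.

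Proteins that fat cells secrete were among the greatest increases. Cfd, adipsin, a serine protease of the alternative complement pathway, reached 10.26, 11.63 and 11.42 on days 4, 6 and 8, against the floor of 3.39 on day 0. It rose by at least 7.72 ± 0.64 (SE; limma adjusted p = 0.00510), which is at least 210.4-fold. Adipoq, the insulin-sensitising hormone adiponectin, stood at 10.18, 10.79 and 10.67 on days 4, 6 and 8, with day 0 again at the floor. Its rise was at least 7.16 ± 0.33 (limma adjusted p = 0.00266). Retn, resistin, another hormone of mouse fat, reached 9.04, 9.71 and 9.56, against the floor on day 0, and rose by at least 6.05 ± 0.35 (limma adjusted p = 0.00266). All 3 genes were already above the floor on day 2, at 6.63 for Cfd, 5.43 for Adipoq and 5.36 for Retn, and well below each of days 4, 6 and 8. Hp, haptoglobin, which binds free haemoglobin, had 8.37, 8.81 and 8.45 on days 4, 6 and 8, against the floor on day 0, and rose by at least 5.16 ± 0.27 (limma adjusted p = 0.00266).

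The promoters of the 4 genes with the greatest increase in RNA level that have an entry in the RefSeq promoter table (build GRCm38.p6) are shown. The arrays measured RNA levels, and promoter activity was not measured. Each window runs from 250 bases before the start of the gene to 50 bases after it, 5′ to 3′ on the strand of the gene, at chr10:79890603-79890902 (plus strand) for Cfd, chr16:23146286-23146585 (plus strand) for Adipoq, chr8:3655520-3655819 (plus strand) for Retn and chr5:17835847-17836146 (minus strand) for Cd36. Capitals mark every match, on either strand, to the C/EBP motif TTNNGNAA, the CAAT box CCAAT, the TATA box TATAAA or the nuclear receptor hexamer AGGTCA, and no matches overlap.
Cfd: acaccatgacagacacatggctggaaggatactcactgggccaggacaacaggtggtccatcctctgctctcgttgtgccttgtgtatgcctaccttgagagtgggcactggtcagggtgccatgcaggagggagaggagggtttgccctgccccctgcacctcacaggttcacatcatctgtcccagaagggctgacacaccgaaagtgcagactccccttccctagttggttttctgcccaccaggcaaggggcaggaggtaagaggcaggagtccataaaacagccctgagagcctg
Adipoq: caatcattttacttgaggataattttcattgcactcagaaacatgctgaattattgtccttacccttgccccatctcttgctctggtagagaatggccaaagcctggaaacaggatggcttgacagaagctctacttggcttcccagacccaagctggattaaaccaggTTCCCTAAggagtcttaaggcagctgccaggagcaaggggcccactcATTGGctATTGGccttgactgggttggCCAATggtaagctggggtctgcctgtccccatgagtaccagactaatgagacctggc
Retn: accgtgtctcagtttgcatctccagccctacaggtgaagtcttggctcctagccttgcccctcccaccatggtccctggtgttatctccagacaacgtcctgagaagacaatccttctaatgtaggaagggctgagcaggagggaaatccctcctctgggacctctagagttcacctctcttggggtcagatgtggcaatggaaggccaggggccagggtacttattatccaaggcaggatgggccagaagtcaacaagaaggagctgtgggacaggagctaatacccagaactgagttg
Cd36: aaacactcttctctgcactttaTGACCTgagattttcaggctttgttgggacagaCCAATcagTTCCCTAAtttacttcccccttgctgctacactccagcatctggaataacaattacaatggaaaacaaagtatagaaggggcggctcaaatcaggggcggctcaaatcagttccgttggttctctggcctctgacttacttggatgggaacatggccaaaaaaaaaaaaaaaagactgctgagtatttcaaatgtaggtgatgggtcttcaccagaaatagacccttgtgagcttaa
The Adipoq window held 1 C/EBP match, beginning 81 bases before the start, and 3 CAAT boxes. The Cd36 window held 1 C/EBP match, 1 CAAT box and 1 nuclear receptor hexamer. None of these letters were found in the Cfd and Retn windows. Among all 32851 promoter windows of the table, 40.7% held TTNNGNAA, 37.4% CCAAT, 13.6% TATAAA and 16.3% AGGTCA, so matches are common and say nothing about binding.

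Other secreted proteins that rose were measurable on day 0. Agt, angiotensinogen, the precursor of angiotensin, had 10.36, 9.90 and 8.68 on days 4, 6 and 8 and 6.18 on day 0, a rise of 3.47 ± 0.74 (SE; limma adjusted p = 0.0456). Day 2 stood at 10.36, and days 6 and 8 were each lower than the day before them. C3, the central complement component, stood at 11.63, 11.85 and 10.79, against 9.08 on day 0, a rise of 2.34 ± 0.50 (limma adjusted p = 0.0456). Nampt, which makes a precursor of NAD, rose by 2.00 ± 0.22 (limma adjusted p = 0.0133), with 8.64, 8.64 and 8.85 on days 4, 6 and 8 and 6.71 on day 0. Of the 12 tested adipokines and secreted proteins 7 rose and 1 fell, where 12.4% of all tested genes rose and 9.05% fell. Their median difference was 2.17 (1.92 to 2.50 over the other scalings), against -0.40 for all tested genes. The leptin gene Lep was at the floor on all 5 control arrays, and so was Il6, the interleukin-6 gene. Before scaling they had 16 and 32 units on day 8, above the limit of 10, and at most 8 and 9 on the other control days. Vegfa, an angiogenic growth factor, lay at 7.88, 8.57 and 8.90, against 7.59 on day 0, and did not pass (limma adjusted p = 0.221).

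Genes of the fat store and its breakdown were among the increases. Of the 4 tested members of the lipolysis and droplet coat list 3 rose, where 12.4% of all tested genes rose. The list median was 3.83, against -0.40 for all tested genes. All 4 are also counted among the adipocyte markers below. Lipe, hormone-sensitive lipase, reached 8.85, 9.08 and 9.33 on days 4, 6 and 8, against 4.26 on day 0. It rose by 4.83 ± 0.27 (SE; limma adjusted p = 0.00266), 28.5-fold. Pnpla2, adipose triglyceride lipase, which removes the first fatty acid from triglyceride, rose 13.7-fold, to 9.39, 9.65 and 9.46, against 5.73 on day 0 (limma adjusted p = 0.00266). Plin1, perilipin, the coat protein of the lipid droplet, reached 6.60, 7.35 and 7.90, against the floor on day 0, and rose by at least 3.90 ± 0.57 (limma adjusted p = 0.0230). On day 2 Lipe stood at 8.05 and Pnpla2 at 8.27, both nearer to days 4 to 8 than to day 0. The fourth member, the beta-3 adrenergic receptor gene Adrb3, through which catecholamines start lipolysis in fat, was above the floor only on day 8, at 5.74. Before scaling it had 57 units on day 6 and 221 on day 8.

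Fatty acid uptake and binding gave 4 increases among 10 tested members and 0 decreases, where 12.4% of all tested genes rose. The median difference was 0.72 (0.52 to 1.30 over the other scalings). The 4 genes that rose are also counted among the adipocyte markers below. Fabp4, the fatty acid carrier of the adipocyte cytoplasm, had 12.25, 13.09 and 12.94 on days 4, 6 and 8 and 6.39 on day 0. Its rise of 6.37 ± 0.41 (SE; limma adjusted p = 0.00325) was 82.6-fold and the greatest among genes measured on all 4 days. Cd36, a fatty acid translocase of the plasma membrane, reached 8.49, 8.94 and 9.39, against the floor on day 0, and rose by at least 5.55 ± 0.42 (limma adjusted p = 0.00403). Acsl1, which activates fatty acids as acyl-CoA, rose by 4.70 ± 0.35 (limma adjusted p = 0.00403), with 10.03, 10.36 and 9.65 on days 4, 6 and 8 and 5.31 on day 0. Lpl, lipoprotein lipase, which frees fatty acids from circulating triglyceride, stood at 12.67, 13.28 and 13.28 on days 4, 6 and 8 and 10.36 on day 0, a rise of 2.71 ± 0.35 (limma adjusted p = 0.0171). The isoform Acsl5 lay lower, at 6.53, 6.36 and 6.60, against 7.45 on day 0, and did not pass (limma adjusted p = 0.0535).

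**Figure D2:**
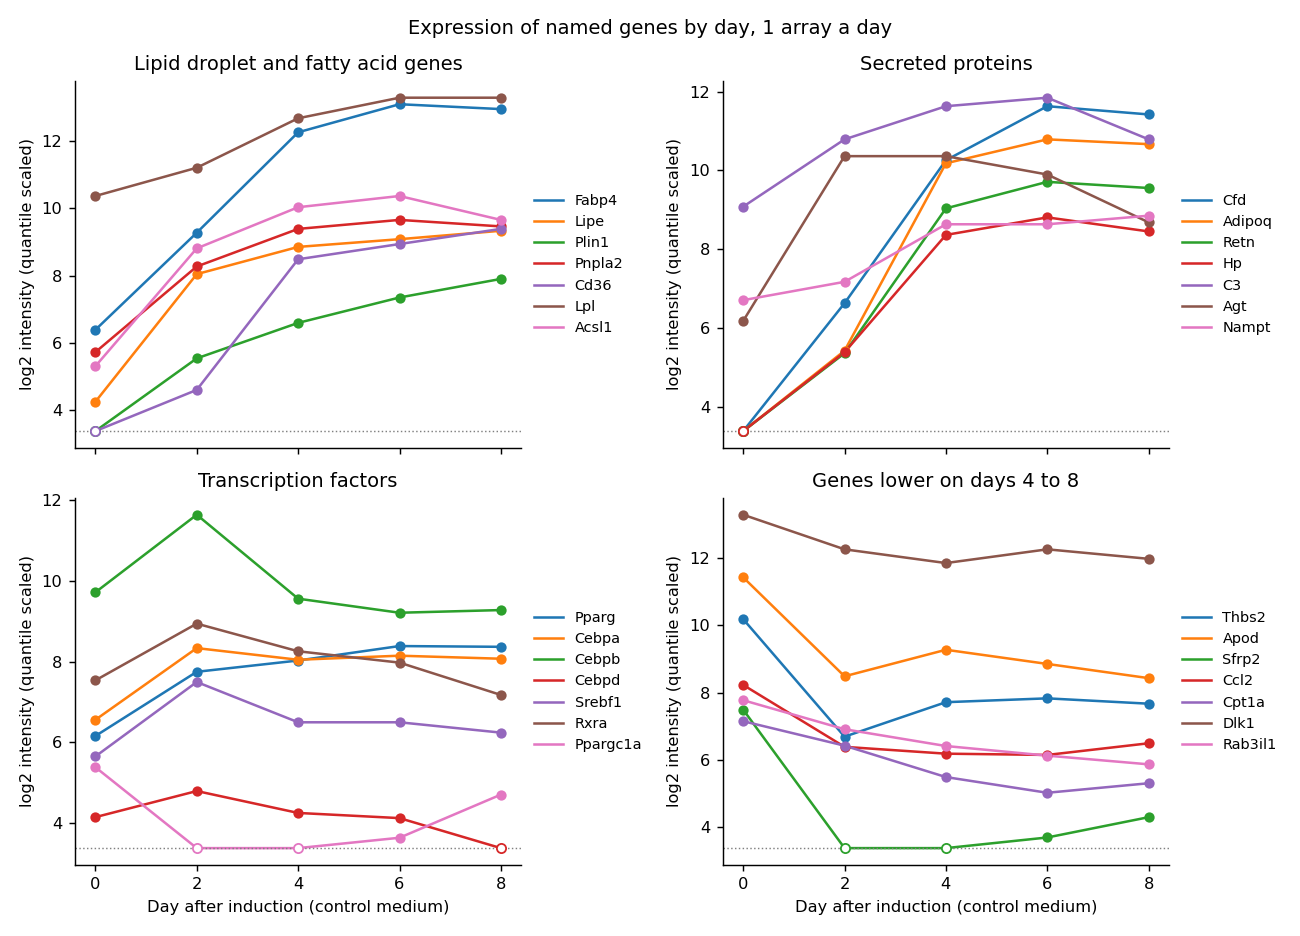
Level of named genes (y axis, log2 intensity, quantile scaled) by day after induction (x axis), 1 array a day in control medium. Open points lie at the floor of 3.39, shown as a dotted line. Fabp4, Cfd and Adipoq climb until day 6, Cebpb peaks on day 2, and Sfrp2 drops to the floor by day 2.

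Around the synthesis of triglyceride, Gpd1 and Pcx of the glycerol and pyruvate list rose, while the lipogenic enzymes carried no calls. Gpd1, which makes glycerol 3-phosphate, the backbone of triglyceride, had 8.81, 9.27 and 9.04 on days 4, 6 and 8, against the floor on day 0, and rose by at least 5.65 ± 0.27 (SE; limma adjusted p = 0.00266). It stood at 3.46 on day 2, just above the floor. Pcx, pyruvate carboxylase, which feeds citrate export for fatty acid synthesis, reached 9.46, 9.56 and 9.90, against 5.91 on day 0, a rise of 3.73 ± 0.27 (limma adjusted p = 0.00403), and was at 9.90 on day 2. Of the 5 tested members of that list 2 rose, where 12.4% of all tested genes rose. Its median was -0.09 with quantile scaling and 0.06 to 0.84 on the deposited values and with the median, 75th percentile and control gene scalings. The 5 lipogenic genes tested had 0 calls and a median of 0.56, which turned to -0.20 on the deposited values. Fasn, fatty acid synthase, lay at 8.09, 8.03 and 7.86, against 7.35 on day 0 (limma adjusted p = 0.103). Acaca, acetyl-CoA carboxylase, had 6.19, 6.62 and 6.76 on days 4, 6 and 8 and 5.96 on day 0 (limma adjusted p = 0.227). Acly, ATP citrate lyase, which yields cytosolic acetyl-CoA, was at 7.86, 7.80 and 7.97, against 8.64 on day 0 (limma adjusted p = 0.0655).

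Among enzymes of pyruvate and malate metabolism and of fatty acid oxidation, the increases past the test were near 2-fold apart from Pcx. Of the 9 tested genes of the pyruvate dehydrogenase and malic enzyme list, 3 rose, where 12.4% of all tested genes rose, and 1 rose on the deposited values. The list median was 0.52 (0.19 to 0.97 over the other scalings). Apart from Pcx, the genes that rose with quantile scaling were Pdhb, a subunit of pyruvate dehydrogenase, and Mdh1, cytosolic malate dehydrogenase. Pdhb had 8.57, 8.68 and 8.73 on days 4, 6 and 8 and 7.55 on day 0, a rise of 1.11 ± 0.20 (SE; limma adjusted p = 0.0366). Mdh1 rose by 0.93 ± 0.20 (limma adjusted p = 0.0456), with 9.21, 9.14 and 9.21, against 8.26 on day 0. In fatty acid oxidation 1 of the 6 tested members rose and 1 fell, where 12.4% of all tested genes rose and 9.05% fell. The list median of 0.48 turned to -0.13 on the deposited values. Under 3 of the 5 other scalings (75th percentile, control gene, deposited) 0 rose, while 1 fell under each. Acads, short-chain acyl-CoA dehydrogenase, rose by 1.07 ± 0.22 (limma adjusted p = 0.0456), with 7.45, 7.72 and 7.64 on days 4, 6 and 8 and 6.53 on day 0. Cpt1a, the liver-type carnitine palmitoyltransferase that admits fatty acids to mitochondria, fell by 1.87 (SE 0.27; limma adjusted p = 0.0230), with 5.50, 5.03 and 5.31, against 7.15 on day 0. Acadm, the medium-chain dehydrogenase, lay at 8.61, 8.53 and 7.80, against 7.23, and did not pass (limma adjusted p = 0.128).

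In glucose uptake and glycolysis 1 of 7 tested genes rose, near the 12.4% of all tested genes that rose. With median and 75th percentile scaling and on the deposited values 2 rose, and 1 fell on the deposited values. Hk2, hexokinase 2, which traps glucose in insulin-responsive tissue, had 6.90, 7.09 and 7.15 on days 4, 6 and 8 and 5.18 on day 0, a rise of 1.86 ± 0.22 (SE; limma adjusted p = 0.0157). Slc2a4, the insulin-responsive glucose transporter Glut4, was at the floor on days 0 and 2 and reached 5.55, 7.10 and 6.96 on days 4, 6 and 8. Its difference of at least 3.15 ± 0.73 did not pass with quantile scaling (limma adjusted p = 0.0547), with day 4 well below days 6 and 8. It passed without day 4, and over all 3 late days with median and 75th percentile scaling and on the deposited values. Slc2a1, the basal transporter Glut1, lay at 7.90, 8.07 and 8.64, against 7.80 on day 0 (limma adjusted p = 0.432). Of 10 tested genes of Glut4 vesicle traffic 0 passed, with a median of -0.75 (-1.14 to -0.36 over the other scalings). The deposited values gave 1 higher and 8 lower of 11 tested. Median and 75th percentile scaling gave 1 higher and 0 lower, and quantile scaling over the 5 control arrays 0 higher and 2 lower.

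Of 12 tested transcription factors of adipogenesis 3 rose and 1 fell, where 12.4% of all tested genes rose and 9.05% fell. The list median of 0.02 turned to -0.24 on the deposited values. Under every scaling 3 rose. With median, 75th percentile and control gene scaling 0 fell, and on the deposited values 3 fell. Pparg, the nuclear receptor that drives fat cell identity, had 8.03, 8.38 and 8.37 on days 4, 6 and 8 and 6.16 on day 0. It rose by 2.10 ± 0.25 (SE; limma adjusted p = 0.0158), 4.28-fold. Cebpa, its partner C/EBP alpha, stood at 8.05, 8.15 and 8.07, against 6.56, a rise of 1.53 ± 0.20 (limma adjusted p = 0.0171). Ppargc1b, a coactivator of mitochondrial genes, rose by 1.09 ± 0.23 (limma adjusted p = 0.0456), though it was dim throughout, at 4.58, 4.86 and 4.61, against 3.60 on day 0. E2f5, a repressor of the cell cycle, fell by at least 0.96 (SE 0.20; limma adjusted p = 0.0456), to 3.51, the floor and 3.46, against 4.41 on day 0. Before scaling E2f5 had 31 units on day 0 and 44, 47 and 54 on days 4, 6 and 8. Its call was lost with median, 75th percentile and control gene scaling. The early factors had other time courses. Cebpb was at 9.71 on day 0, 11.63 on day 2 and 9.56, 9.21 and 9.27 on days 4, 6 and 8. Cebpd was at 4.15, 4.80, 4.26, 4.13 and the floor over the same days. Srebf1, which drives lipogenic genes, had 5.65 on day 0, 7.50 on day 2 and 6.50, 6.50 and 6.24 afterwards, and Rxra, the dimer partner of PPAR gamma, had 7.54, 8.94, 8.26, 7.97 and 7.18. Each of these 4 was highest on day 2, and none passed on days 4 to 8 against day 0. Ppargc1a, a related coactivator, was at 5.39 on day 0, at the floor on days 2 and 4 and at 3.64 and 4.71 on days 6 and 8 (limma adjusted p = 0.148).

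Read as a whole, 12 of the 14 tested adipocyte markers rose and 0 fell, with a median of 4.30 (4.20 to 4.98 over the other scalings), where 12.4% of all tested genes rose. The markers were chosen with these data in view, so the count describes them only. Of the tested members 7 were at the floor on day 0, and 6 of these enter at their bound, while the difference of Adrb3, at the floor on days 0, 4 and 6, is no bound. Slc2a4 and Adrb3 did not pass with quantile scaling, and Lep did not pass the filter and was not tested. Few markers of other cells were on the array. Ucp1 of brown fat had at most 1 unit on any control array, the endothelial receptor gene Kdr had 14, 12 and 19 units on days 4, 6 and 8 and 13 on day 0 and was at the floor after scaling, and 0 of 4 hepatocyte genes passed the filter. Macrophage and muscle markers of the list were not on the array.

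**Figure D3:**
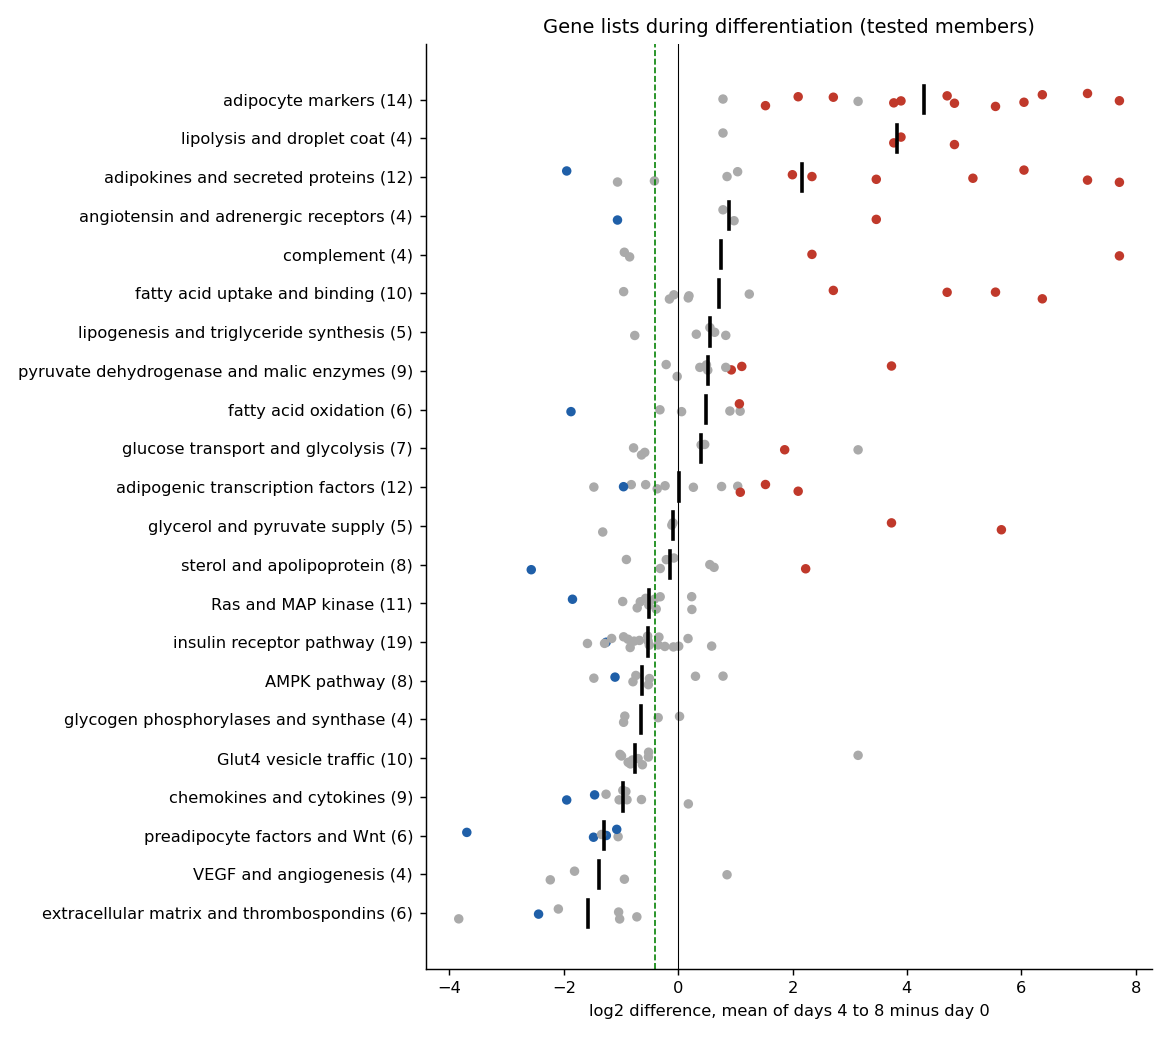
Difference between the mean of days 4 to 8 and day 0 (x axis, log2) for each tested gene, by gene list (rows, with the number of tested members). Red points rose and blue points fell in the limma test, grey points did not pass, the black bar is the list median and the dashed line the median of all 210 tested genes at -0.40. Points of genes at the floor on day 0 and above it on each late day are lower bounds, and a point such as Adrb3, at the floor on late days too, is no bound. The adipocyte markers lie to the right, with a median of 4.30, and the preadipocyte and matrix genes to the left.

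Some preadipocyte and Wnt pathway genes fell. Of 6 tested preadipocyte and Wnt genes 4 fell and 0 rose, where 9.05% of all tested genes fell, with a median of -1.30 (-1.68 to -1.02 over the other scalings). Sfrp2, a secreted binder of Wnt proteins, was at the floor, 3.70 and 4.31 on days 4, 6 and 8, against 7.50 on day 0. It fell by at least 3.70 (SE 0.43; limma adjusted p = 0.0154), at least 13.0-fold. Dlk1, the preadipocyte factor Pref-1, stood at 11.85, 12.25 and 11.97, against 13.28 on day 0, and fell by 1.26 (SE 0.26; limma adjusted p = 0.0456). Ctnnb1, beta-catenin, the effector of canonical Wnt signalling, had 8.68, 8.26 and 8.32 on days 4, 6 and 8 and 9.90 on day 0, and fell by 1.48 (SE 0.27; limma adjusted p = 0.0366). Its nuclear partner Tcf7l2 fell by 1.07 (SE 0.23; limma adjusted p = 0.0468), with 6.09, 6.39 and 6.15, against 7.29. Of the 3 tested Dishevelled genes, which relay the Wnt signal from the receptor, Dvl2 and Dvl3 fell. Dvl2 lay at 5.91, 5.81 and 5.94, against 7.23 on day 0 (limma adjusted p = 0.0230). Dvl3 had 4.80, 4.95 and 5.11 on days 4, 6 and 8 and 6.10 on day 0 (limma adjusted p = 0.0456). Dvl1 was at 6.15, 6.34 and 6.27, against 6.44 on day 0, and did not pass (limma adjusted p = 0.526). Lef1, another nuclear partner of beta-catenin, had 4.99, 4.50 and 3.96 on days 4, 6 and 8 and 4.75 on day 0. Its difference of -0.26 did not pass (limma adjusted p = 0.683). The Dishevelled genes and Lef1 are not members of the list counted above. Dlk1 missed the threshold with quantile scaling over the 5 control arrays (limma adjusted p = 0.0577), and Dvl2 and Tcf7l2 with control gene scaling. Ctnnb1 and Dvl3 missed it with median and with control gene scaling. Gata2, a GATA factor that blocks adipogenesis, was at the floor from day 2 on, against 5.27 on day 0, a difference of -1.89 or lower with no test. Before scaling it had 20, 26 and 39 intensity units on days 4, 6 and 8 and 53 on day 0, so the floor does not mean that it gave no signal. Gata3 was likewise at the floor from day 2 on, with 4.10 on day 0. Under the common median, 75th percentile, control gene and deposited scalings the preadipocyte and Wnt list had 4 to 5 members lower, and 3 with quantile scaling over the 5 control arrays.

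Some matrix, chemokine and growth genes also fell. Thbs2, thrombospondin 2, an angiogenesis inhibitor of the matrix, had 7.72, 7.83 and 7.67 on days 4, 6 and 8 and 10.18 on day 0. It fell by 2.44 (SE 0.20; limma adjusted p = 0.00510), 5.43-fold. Thbs1, thrombospondin 1, which activates TGF beta, lay at 5.62, 7.15 and 8.09, against 10.79 on day 0. Its difference of -3.84 ± 1.04 did not pass (limma adjusted p = 0.0655), with a wide spread between the 3 late days. All 6 tested matrix genes lay below day 0 under quantile scaling, as did 138 of all 210 tested genes. Of the 6 matrix genes 1 passed, where 9.05% of all tested genes fell. The median of the matrix genes was -1.57 (-1.86 to -1.08 over the other scalings), against -0.40 for all tested genes. Under the other scalings 1 to 4 passed, with 4 on the deposited values. Ccl2, the monocyte chemoattractant, fell by 1.95 (SE 0.25; limma adjusted p = 0.0171), to 6.19, 6.15 and 6.50, against 8.23 on day 0. Ccl5, another chemokine, fell by at least 1.46 (SE 0.22; limma adjusted p = 0.0230), with 3.60, the floor and 3.60, against 4.99. Of 9 tested chemokine and cytokine genes 2 fell and 0 rose, where 9.05% of all tested genes fell. Their median was -0.97, against -0.40 for all tested genes, and the deposited values had 5 lower. Ccl5 and Ccnd1 missed the threshold with median, 75th percentile and control gene scaling. Ccnd1, cyclin D1, which drives entry into the cell cycle, had 8.45, 8.11 and 8.11 on days 4, 6 and 8 and 9.46 on day 0, and fell by 1.24 (SE 0.25; limma adjusted p = 0.0456). Vegfc and Vegfd, lymphatic growth factors, lay at -1.81 ± 0.57 and -2.24 ± 0.72 and did not pass (limma adjusted p = 0.0900 and 0.0947).

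Of 8 tested sterol and apolipoprotein genes 1 rose and 1 fell, near the 12.4% and 9.05% of all tested genes that rose and fell. The list median of -0.14 turned to 0.14 with control gene scaling. Apod, apolipoprotein D, a carrier of small lipids, had 9.27, 8.85 and 8.43 on days 4, 6 and 8 and 11.42 on day 0, and fell by 2.57 (SE 0.40; limma adjusted p = 0.0241), a call lost with median, 75th percentile and control gene scaling. Abca1, which exports cholesterol from cells, rose by 2.23 ± 0.29 (SE; limma adjusted p = 0.0173), with 5.69, 6.20 and 6.09, against 3.76. Hsd11b1, which regenerates active glucocorticoid inside cells, reached 6.85, 7.78 and 8.38, against the floor on day 0, and rose by at least 4.28 ± 0.66 (limma adjusted p = 0.0241). It had 6.43 on day 2. Nr3c2, the mineralocorticoid receptor gene, was at the floor from day 2 on and at 4.35 on day 0. Ctla4, an inhibitory receptor known from T cells, was at the floor on days 0 and 2 and at 4.50, 4.80 and 5.03 on days 4, 6 and 8 (limma adjusted p = 0.0456).

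How many kinase and insulin pathway genes passed depended on the scaling. Of 19 tested genes of the insulin receptor pathway 0 rose and 1 fell, where 12.4% of all tested genes rose and 9.05% fell. The list median was -0.53 (-0.98 to -0.20 over the other scalings), close to the -0.40 of all tested genes. Below 0 lay 16 of the 19, and 138 of all 210 tested genes. The deposited values had 13 of 20 lower, and the other scalings 0 to 3, with 0 higher under each. The gene that fell was Cap1, with 7.92, 7.92 and 8.00 on days 4, 6 and 8 and 9.21 on day 0 (difference -1.26 ± 0.20, SE; limma adjusted p = 0.0241). Insr, the insulin receptor, lay at 4.01, 4.13 and 4.52, against 4.99 on day 0 (limma adjusted p = 0.126), and Irs1, its main docking protein, at 4.61, 5.36 and 5.06, against 6.30 (limma adjusted p = 0.0716). In the MAP kinase list Map2k6, an activator of p38, fell by at least 1.85 (SE 0.33, limma adjusted p = 0.0366). It was 1 of 11 tested, with 0 higher. On the deposited values 8 of 11 fell, and 0 fell with median, 75th percentile and control gene scaling. In the AMPK list Prkag2, a regulatory subunit, fell by at least 1.10 (SE 0.20, limma adjusted p = 0.0366). It was 1 of 8 tested, with 0 higher. On the deposited values 5 of 8 fell, and 0 fell with median, 75th percentile and control gene scaling. With control gene scaling 1 rose. Of all tested genes 9.05% fell, so 1 of 11 and 1 of 8 are near that share. Other genes that fell were Tfap2a, a transcription factor, at -1.42 ± 0.29, Rab3il1, an exchange factor of Rab proteins, at -1.64 ± 0.29, and Adra1d, an adrenergic receptor, at -1.06 ± 0.23 (SE; limma adjusted p from 0.0366 to 0.0456).

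Day 2 separates the end of the inducer treatment from the later days. On days 4 to 8 against day 2, 10 of the 210 genes rose (4.76%) and 6 fell (2.86%), 7.62% in all, with 67 at an unadjusted p under 0.05 (limma). Both comparisons use the same 3 late arrays, so their differences are given side by side. The greatest rise over day 2 was that of Gpd1, at 5.58 (limma adjusted p = 0.00728), against at least 5.65 over day 0. For Adipoq it was 5.12 over day 2 and at least 7.16 over day 0, for Cfd 4.47 and at least 7.72, for Cd36 4.33 and at least 5.55, and for Retn 4.07 and at least 6.05. For Insig1, which holds SREBP precursors in the endoplasmic reticulum, the difference was 2.37 over day 2 (limma adjusted p = 0.0259) and 0.55 over day 0 (limma adjusted p = 0.197). Its levels on days 0, 2, 4, 6 and 8 were 7.06, 5.24, 7.42, 7.88 and 7.54, with day 2 the lowest. Lipe, by contrast, lay 1.04 above day 2 (limma adjusted p = 0.0936) and Pcx at -0.26. Each of the 6 genes that fell had its highest level on day 2. Cebpb lay at -2.29 against day 2 (limma adjusted p = 0.0259) and -0.37 against day 0. Irs2, a docking protein of the insulin receptor, was at -1.88 and -0.68, Stat3, a cytokine-activated transcription factor, at -1.72 and -0.35, and Angptl4, an inhibitor of lipoprotein lipase, at -1.54 and -0.42. Pip, prolactin-induced protein, was at -1.52 or lower and -0.18, and Acly at -1.51 and -0.76. These decreases depended on the scaling: on the deposited values and when scaled to the control genes, 0 genes fell from day 2, while 31 and 19 rose. With median scaling 12 rose and 1 fell, and with 75th percentile scaling 11 and 2. Without the array of day 6 or of day 8, 0 genes passed against day 2 (28 and 53 at an unadjusted p under 0.05), and without day 4 it was 6.

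Within days 4 to 8 most levels stayed close. Of 192 genes measured on days 4 and 8, 166 differed by less than 2-fold, 13 were at least 2-fold higher on day 8 (6.77%) and 13 at least 2-fold lower (6.77%), with no test, since each day had 1 array. Thbs1 had 5.62, 7.15 and 8.09 on days 4, 6 and 8. Lgals12, a galectin of fat cells, had 4.13, 5.50 and 6.33, and was at the floor on days 0 and 2. Trib3, a stress-induced pseudokinase, ran through 6.73, 8.33 and 8.94, Hmox1, heme oxygenase 1, through 8.23, 8.61 and 10.18, and Csf1, a macrophage growth factor, through 6.04, 6.79 and 7.60. On day 8 Trib3 and Hmox1 lay above their day 0 levels of 7.42 and 9.56, and Csf1 lay below its 8.07. Vdr, the vitamin D receptor, ran through 6.81, 5.31 and 3.51 after 7.83 on day 2, and Dusp1, a phosphatase of MAP kinases, through 6.39, 5.62 and 4.15. Vegfd ran through 7.60, 6.90 and 5.91 and Agt through 10.36, 9.90 and 8.68. Adrb3, Gcg (proglucagon) and Trf (transferrin) were above the floor on day 8 alone among the 5 control arrays, at 5.74, 5.50 and 4.86. Before scaling Adrb3 had 57 units on day 6 and 221 on day 8, and Gcg 16 and 181. Both thus exceeded the limit of 10 units on day 6 already.

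**Figure D4:**
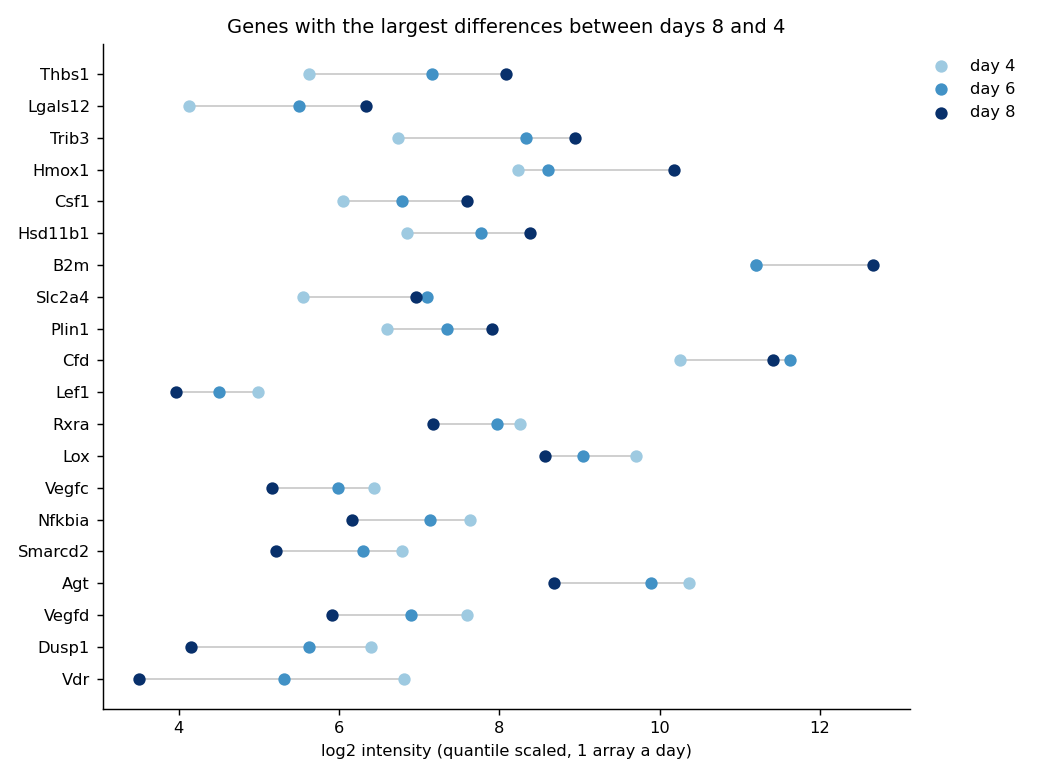
Level (x axis, log2 intensity, quantile scaled) on days 4, 6 and 8 (light to dark points, 1 array each) for 10 genes with the greatest increases and 10 with the greatest decreases between days 4 and 8 among those reported here. Thbs1, Lgals12 and Trib3 run upward, and Vdr and Dusp1 downward, with day 6 between days 4 and 8.

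On single days, 29, 37 and 39 genes were at least 2-fold higher than day 0 on days 4, 6 and 8, and 35, 49 and 52 at least 2-fold lower. On all 3 days, 24 of 219 genes were at least 2-fold higher (11%) and 22 at least 2-fold lower (10%), 23 of the 26 genes that rose and 15 of the 19 that fell among them. On the deposited values that count was 24 higher and 60 lower, with control gene scaling 32 and 13, and with median scaling 29 and 15. The control gene Gapdh, a glycolytic enzyme, lay at 13.47, 13.69 and 13.69 on days 4, 6 and 8 and 11.97 on day 0, a difference of 1.64 with quantile scaling, 0.49 to 1.28 with the 75th percentile, median, control gene and 5-array quantile scalings, and 0.05 on the deposited values, which were scaled to it. Actb, cytoplasmic actin, lay at -0.37, and between -1.43 and -0.35 over the other scalings.

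**Figure D5:**
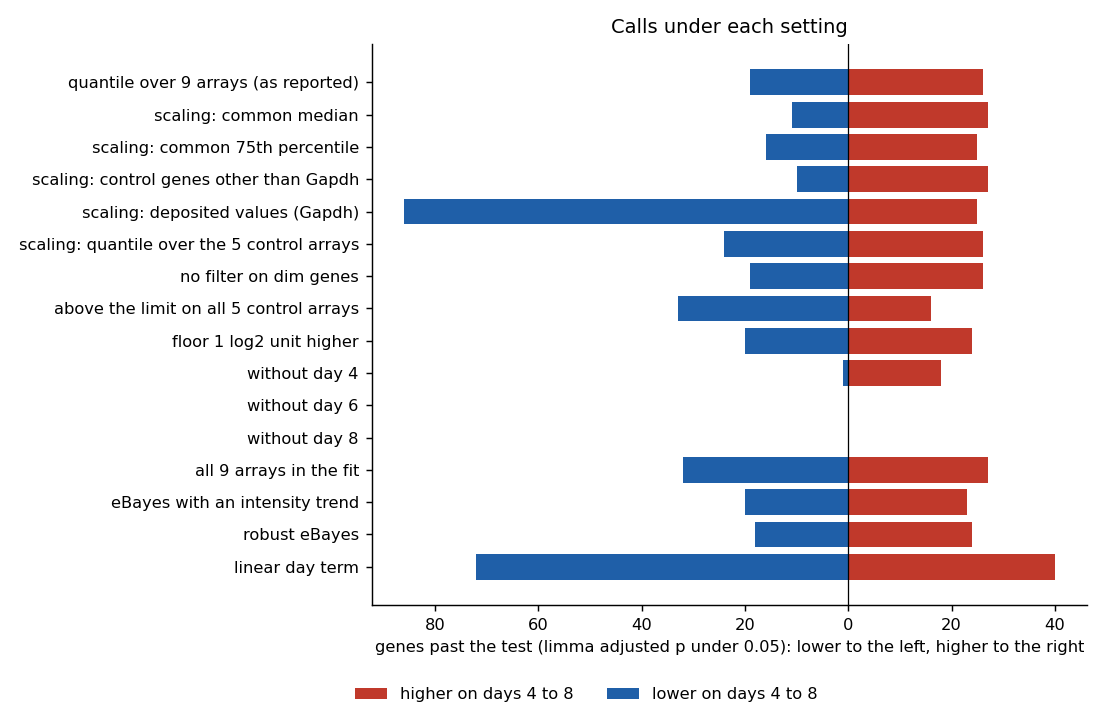
Number of genes past the limma test on days 4 to 8 against day 0 under each setting (rows), lower genes to the left in blue and higher genes to the right in red. The count of higher genes stays between 23 and 27 under the 6 scalings and both other eBayes settings, while the count of lower genes runs from 10 to 86 over the scalings. Without day 6 or day 8 both counts are 0.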

How the data were processed

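RNA of 9 cultures was labelled with 1 dye and hybridised to 1 array each, per the labels' protocols, and the scanner software was GenePix Pro 6.1.0.4 per the headers of the deposited files. The deposited value table gives linear intensity, and its making by the authors is not described in the sources used here. Its values equalled background-subtracted spot intensity plus 2 or 3 units, scaled so that the Gapdh spots averaged 10000. All 354 table entries matched 1 spot each (relative tolerance 1e-06) and were named through that match. Scanner wells carry no sample label, so units before scaling rest on the same match (354 entries, against 0 in the next best well for these arrays). Of 330 genes with controls, 317 had current symbols and 13 older ones.

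Intensities were put on the log2 scale, spots of a probe averaged, the brightest probe taken per gene and arrays quantile normalised over all 9. Genes needed more than 10 units on at least 2 of 9 arrays, a limit that 3 of 369 empty and negative spots exceeded. Values were floored at 3.39, and genes at the floor on days 4, 6 and 8 have no spread and no test. Limma 3.58.1 (lmFit and eBayes, R 4.3.3) was fitted to the 5 control arrays with levels for days 4 to 8, day 2 and day 0, leaving 2 residual degrees of freedom (prior 1.97). The single arrays of days 0 and 2 are assumed to vary like days 4 to 8. The median residual SD was 0.249 and the median SE of a difference 0.281. P-values were two-sided and adjusted by Benjamini-Hochberg over 210 genes at a threshold of 0.05. Precision is limited by the number of arrays. The fit was tested on simulated data.

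The comparison, gene lists and tests were chosen with earlier results of these data known, and 8 lists were added after the array's gene names were read. Lists share members. Genes were named as the 12 largest differences each way past the test, the 10 highest at the floor on day 0, the 6 highest lost to the floor, a fixed panel of 32, the 2 largest each way per list, and the 5 largest each way against day 2 and between days 8 and 4, of which some are not reported here. Adrb3, Ctla4, Dvl1, Il6, Insig1, Kdr, Lef1, Mdh1, Ppargc1b, Tcf7l2, Trf, Ucp1 and Actb were named outside that rule after their values were seen. Genes whose array name fits several genes are not named. Promoter sequences are from RefSeq, for 233 of 321 genes.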

Additional observations from a re-analysis of the deposited data

How the results depend on the processing

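Against the 45 genes past the limma test on days 4 to 8 over day 0, the other settings gave 37 to 59, apart from 111 on the deposited values (25 higher, 86 lower), 112 with a linear term for day (40 and 72) and 0 to 19 when 1 of days 4, 6 and 8 was left out. Filtering on all 5 control arrays turned the split to 16 higher and 33 lower, and a fit to all 9 arrays gave 27 and 32. Against day 2, 16 genes became 31 on the deposited values, 8 with the filter on all 5 control arrays, 38 with all 9 arrays, 81 with a linear term for day, 0 to 6 with a day left out, and 13 to 22 otherwise. The count at least 2-fold from day 0 on each day was 46, and 84 on the deposited values. Leaving out a day leaves 1 residual degree of freedom, and the linear term leaves 1 as well. The cause of the other changes was not tested. Of 78 genes named and tested, these changed sign against day 0, none of them past the test: Acaca (-0.20) and Rxra (-0.15) with deposited values; with scaling to the control genes Cebpb (0.30), Cebpd (0.22), Insr (0.017), Pip (0.0851) and Vdr (0.12); with median scaling Cebpb (0.10), Cebpd (0.11) and Pip (0.24); with 75th percentile scaling Cebpd (0.073) and Pip (0.24). With a day left out Cebpd ran between -0.395 (without day 4) and 0.0399 (without day 8) and Vdr between -1.0867 and 0.5665, and with a floor 1 log2 unit higher Vdr came to 0.0081. Lef1 was not among these 78 genes. No paired analysis was possible because the labels give no replicate numbers and each day had 1 array. Dim spots limit what can be seen, as 83 of 321 genes did not pass the filter and 17 of the 238 that did were at the floor on all 5 control arrays.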
